A study of Mus musculus with 6 samples.

Results

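Genes of the primary cilium and its base were followed in RNAseq libraries of immortalized mouse pancreatic fibroblasts. The genes were picked by a rule on symbols, which was set with earlier results of these data known. All genes named Ift, Bbs, Tctn or Cep with a number were taken, together with the dynein-2 genes and a short set of other ciliary genes (Kif3a, Kif3b, Kifap3, Arl13b, Arl3, Arl6, Tulp3, Mks1, Cc2d2a, Rpgrip1l, Ofd1, Evc and Evc2). This gave 77 of the 14831 genes listed, of which 40 are not named Cep and 37 are. All 77 passed the filter on low counts, with 53 to 4864 counts in a library.

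The libraries fall into 2 groups of 3. One group carries the genotype label WT and the other Gli2-/-;Gli3-/-, here called labelled KO, and both come from mice of a mixed strain. Such lines were derived from the adult pancreas of mice with floxed Gli alleles, immortalized, infected with a GFP adenovirus and a dsRed lentivirus (control) or with GFP and Cre adenoviruses (KO), and sorted by flow cytometry. Each library comes from its own well of confluent cells in DMEM with calf serum. The p-values therefore measure the spread between wells and cannot be read as a spread between independently made lines.

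The primary cilium is a single, non-motile projection of the cell membrane that grows from the mother centriole, and vertebrate HH signal transduction runs through it. Intraflagellar transport (IFT) trains carry cargo along its microtubules, with kinesin-2 moving them to the tip together with the IFT-B complex and dynein-2 returning them together with the IFT-A complex. The BBSome, named after Bardet-Biedl syndrome, links membrane proteins to these trains, the transition zone at the base acts as a gate, and most Cep genes code for proteins of the centrosome. GLI2 and GLI3 protein pass through the cilium before they act in the nucleus.

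The targeted genes went against the labels. Gli2 had 809, 944 and 868 counts in WT-labelled libraries and 1932, 2316 and 1926 in KO-labelled ones, and Gli3 had 392, 416 and 398 against 1434, 1637 and 1404. The HH targets moved the other way. Gli1 had 40, 50 and 37 counts in WT-labelled libraries against 4, 10 and 13, and Ptch1 had a log2 fold change of -1.53 (adjusted p = 2.16e-11). Counts per gene cannot show whether a floxed exon is missing, and every direction given here is that of the labels. Totals ran from 31728420 to 33905521 counts in WT-labelled libraries and from 32781730 to 41035931 in KO-labelled ones. Of 10 fibroblast markers 9 were listed, with a sum of 44820 to 47230 CPM (counts per 1000000 counts of the effective library size) in WT-labelled libraries and 36790 to 38530 in KO-labelled ones. Col1a1 led that sum and did not pass (log2 fold change 0.01). Of the 8 fibroblast markers tested, 4 were lower by at least 1.5-fold (Dcn -1.55, Col3a1 -0.94, Pdgfra -0.90 and Pdgfrb -0.66) and 1 was higher (S100a4 1.67). At that limit 6.1% of all genes were lower and 11.6% higher. Thy1 had at most 19 counts in a library. Of the 8 epithelial markers 4 were listed, at 12.84 to 13.82 against 29.48 to 30.44 CPM, and Epcam was not listed. Krt7 made most of that rise (log2 fold change 2.40), Cdh1 had 1.08 at under 1 CPM, and Sox9 was lower (-0.50, adjusted p = 1.73e-04). Cela1, the single acinar gene listed of 6, was at 7.36 to 8.84 against 13.6 to 15.39 CPM (0.87), and 4 of 7 macrophage markers summed to 55.58 to 60.78 against 52.43 to 54.13 CPM. None of the 5 endothelial markers was listed. All 16 genes of a mitotic list were higher in KO-labelled libraries by at least 1.5-fold, beside 11.6% of all genes. Their sum was 240.0 to 293.1 against 693.4 to 803.3 CPM. In bulk samples, fewer cells of a type and less RNA per cell cannot be told apart.

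Changes in the cilium genes were many and small. At an adjusted p under 0.05 (edgeR, quasi-likelihood F test, Benjamini-Hochberg over all genes tested), 35 of the 77 fell in KO-labelled libraries, 20 rose and 22 did not pass. That is 71.4% of the members, against 58.7% of all 14289 genes tested (29.9% higher and 28.8% lower). With upper-quartile scaling in place of TMM scaling the split was 25 higher and 25 lower. Only 4 members passed and also changed by at least 1.5-fold, all of them higher (Mks1, Cep55, Cep126 and Cep128), which is 5.19% against 17.7% of all genes (11.6% higher and 6.1% lower). Of the 77 changes, 42 were under 1.2-fold, 31 between 1.2-fold and 1.5-fold, 2 between 1.5-fold and 2-fold and 2 at least 2-fold. The libraries of the groups did not overlap for 56 members, or 72.7%, against 64.2% of all genes. The median log2 fold change was -0.08 over the members and 0.002 over all genes tested. With 3 libraries a group, no exact two-sided permutation test of a single gene can give less than 0.1.

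**Figure D1:**
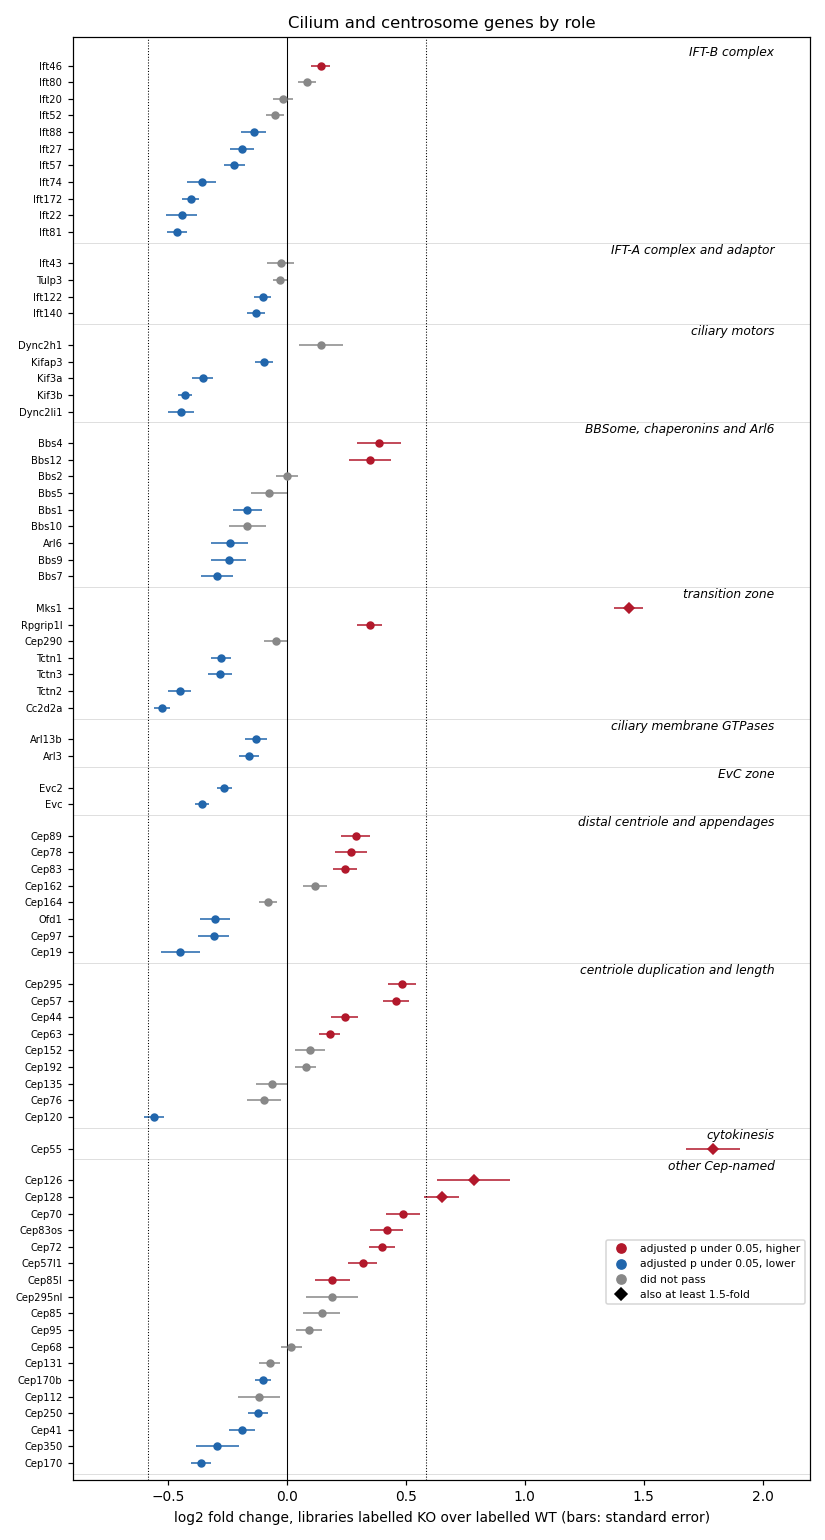
The log2 fold change (libraries labelled KO over labelled WT) of 76 of the 77 genes, grouped by role, with bars for the standard error and dotted lines at 1.5-fold. IFT, motor and tectonic genes sit mostly left of 0, and the 4 diamonds past the right dotted line are Mks1, Cep55, Cep126 and Cep128.

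Of the 40 genes that are not named Cep, 26 fell (65.0%, beside 28.8% of all genes) and 5 rose, with a median log2 fold change of -0.17. Of the 37 Cep genes 9 fell (24.3%) and 15 rose (40.5%, beside 29.9% of all genes), with a median of 0.10. The difference between these sets was not tested. The summed level of all 77 genes was 2651, 2664 and 2710 CPM in WT-labelled libraries and 2423, 2451 and 2492 CPM in KO-labelled ones, or 91.78% of the WT mean (90.57% to 93.15% by library). By role, the sum was lowest for the EvC zone (80.4% of the WT mean) and the motors (81.96%), followed by the transition zone (86.99%), the membrane GTPases (90.19%) and IFT-B (90.33%). The BBS genes stood at 94.78% and centriole duplication genes at 102.7%, where the libraries of both groups overlapped.

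Direction also went with the chromosome on which a gene lies. Over the tested genes outside the members, the median log2 fold change was -0.29 on chromosome 18, -0.20 on chromosome 5, -0.19 on chromosome X and -0.15 on chromosome 1, and it was 0.19 on chromosomes 8 and 9, 0.16 on chromosome 3 and 0.11 on chromosomes 7 and 10. On the 6 chromosomes with a median under -0.1 (1, 5, 16, 17, 18 and X), 20 of 23 members fell and 0 rose, and of 3752 other genes there 49.5% fell and 16.7% rose. On the 5 chromosomes with a median over 0.1 (3, 7, 8, 9 and 10), 15 of 24 members rose and 2 fell, and of 4072 other genes 48.1% rose and 11.7% fell. The remaining 9 chromosomes held 30 members, of which 13 fell and 5 rose, beside 27.3% and 26.2% of 6377 other genes. Relative to the median of the other genes on their own chromosome, 49 of the 77 members lay below 0, as against 48 before, with a median of -0.07. All 11 IFT-B genes and 34 of the 40 genes not named Cep then lay below 0, and the Cep genes kept a median above 0 (0.08). The part of the chromosome in these changes was not tested.

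**Figure D2:**
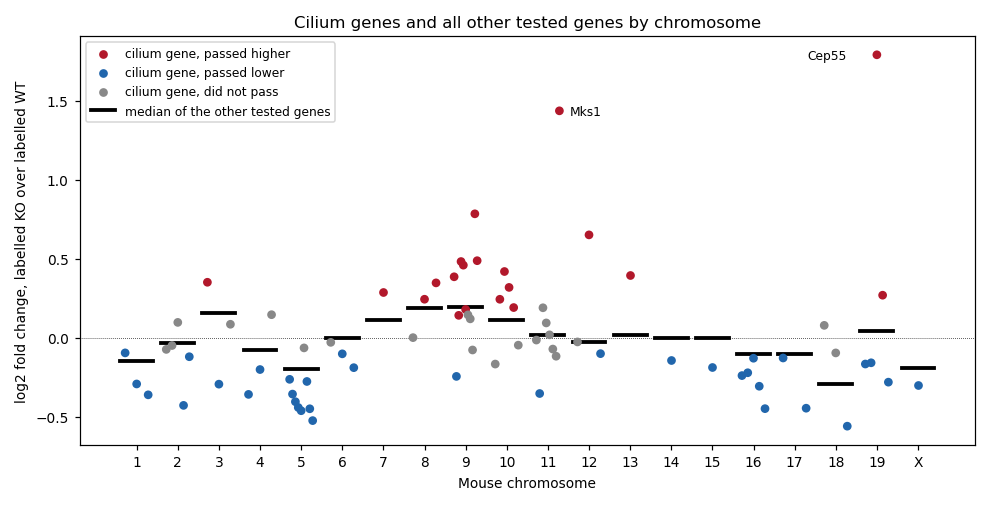
The log2 fold change (libraries labelled KO over labelled WT) of each cilium gene by mouse chromosome, with points for members coloured by whether they passed and black bars for the median of all other tested genes of that chromosome. Of the 9 members on chromosome 5, 8 passed as lower, beside a bar at -0.20, and of the 11 on chromosome 9, 7 passed as higher, beside a bar at 0.19.

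Promoters of ciliary genes are known to carry the X-box, the site bound by RFX factors. The X-box was searched as GTNNCCNNNGNAAC on both strands in RefSeq windows of 300 bases on GRCm38.p6, 250 before to 50 after each transcript start, and it does not overlap any other motif searched in these windows. It was found in 13 of the 67 members with a window (19.4%) against 673 of 27025 genes (2.49%), and in 3.1% of tested genes with a window. The GLI site TGGGTGGTC was found in 0 of 67 members and in 0.289% of all genes. A match is a description of letters and not a bound site. Matches are shown, in capitals, for the gene that changed most among those holding one and for genes of IFT-B, the BBSome, the transition zone and the distal appendages. Each stretch is given 5′ to 3′ on the strand of the gene. In Tctn2, Ift57 and Cep83 the match is on the opposite strand, so the capitals there spell the reverse complement of the motif.
Mks1 (chr11:87853183-87853212, plus strand): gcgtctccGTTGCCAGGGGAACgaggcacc
Bbs4 (chr9:59353464-59353493, minus strand): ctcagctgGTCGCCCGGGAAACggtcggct
Bbs7 (chr3:36613489-36613518, minus strand): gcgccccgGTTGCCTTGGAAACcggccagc
Tctn2 (chr5:124598679-124598708, plus strand): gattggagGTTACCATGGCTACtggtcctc
Ift22 (chr5:136908109-136908138, plus strand): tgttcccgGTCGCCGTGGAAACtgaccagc
Ift57 (chr16:49699199-49699228, plus strand): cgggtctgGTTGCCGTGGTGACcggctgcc
Cep83 (chr10:94688768-94688797, plus strand): ccctccgaGTTTCCCGGGCTACctcaacct

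The other members with a match were Bbs1, Tctn1, Cep19, Cep44, Cep112 and Cep83os, and Ift22 and Cep112 held 2 matches each. Members with the same element went both ways. Of the 13, 5 rose, 7 fell and 1 did not pass (median log2 fold change -0.17). Of the 54 members with a window and no match 15 rose, 22 fell and 17 did not pass (median -0.06). Over all genes tested, 29.9% rose and 28.8% fell, and the difference between these sets was not tested. In Mks1 the match lies 24 to 11 bases before the start, and in Tctn2, which fell, it lies 62 to 49 bases before it. The site of Cep83 is also that of Cep83os, a noncoding RNA on the other strand, and both are among the 5 that rose.

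**Figure D3:**
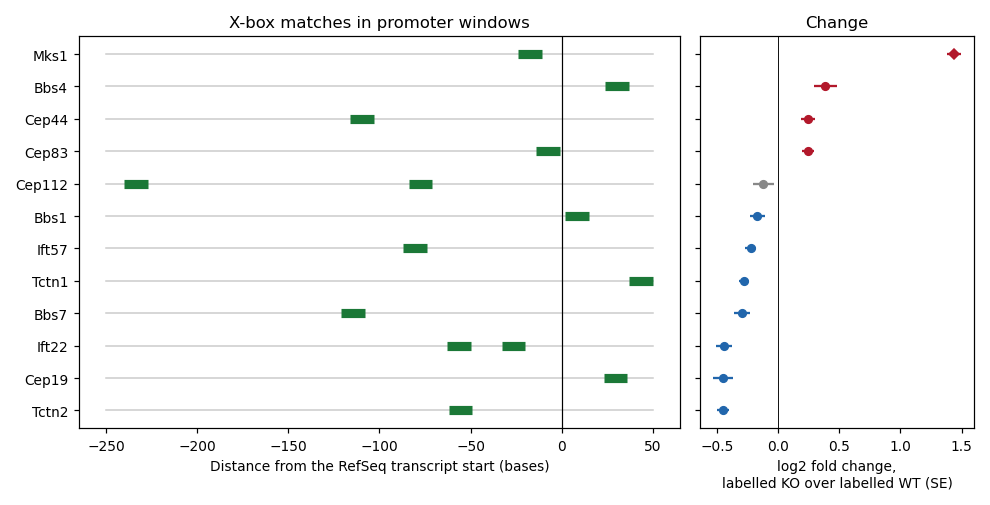
Left, the place of each X-box match (green) in the window from 250 bases before to 50 bases after the transcript start, for 12 members (Cep83os, which shares the match of Cep83, is not drawn). Right, the log2 fold change of the same gene with its standard error, from 1.44 for Mks1 to -0.45 for Tctn2.

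The IFT-B complex carries building blocks such as tubulin towards the ciliary tip. Of its 11 members 7 fell (Ift81, Ift22, Ift172, Ift74, Ift57, Ift27 and Ift88), 1 rose (Ift46), and Ift80, Ift52 and Ift20 did not pass. That is 63.6% lower, beside 28.8% of all genes, and 9.09% higher, beside 29.9%. The largest fall was that of Ift81 (chromosome 5 from 122550204 to 122614518 on GRCm38), which binds tubulin together with IFT74. Ift81 was at 33.8, 34.2 and 34.9 CPM in WT-labelled libraries and at 24.3, 24.9 and 25.4 in KO-labelled ones, with no overlap. Its log2 fold change was -0.46 (SE 0.042, adjusted p = 9.70e-07), and its partner Ift74 had -0.36 (adjusted p = 2.03e-04). Ift172, a subunit at the outer part of IFT-B, was at 68.3, 67.8 and 68.6 CPM against 51.1, 50.7 and 52.8, or 1.33-fold lower (adjusted p = 4.62e-07). Ift81, Ift22 and Ift172 all lie on chromosome 5, where the genes within 5 Mb of each had a median of -0.31, -0.22 and -0.26. The subunit most used to mark the cilium, Ift88 (chromosome 14), was at 19.6, 20.6 and 21.1 CPM against 18.5, 19.1 and 18.0, with no overlap and a log2 fold change of -0.14 (adjusted p = 0.0343). It failed the test in 7 of the 14 other settings, with an adjusted p between 0.0199 and 0.189. Ift46 rose by 0.14 (adjusted p = 0.00679) and lies on chromosome 9, at 0.05 below the median of that chromosome. Ift20, which also serves at the Golgi and had the highest level per length of all members (22.5 CPM per kb of exon, mean of 6 libraries), was at 35.2, 34.3 and 34.1 CPM against 32.7, 35.1 and 34.7. Ift52, second in level at 16.4 CPM per kb, had a log2 fold change of -0.05 (adjusted p = 0.272).

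IFT-A brings trains back from the tip and, through its adaptor TULP3, lets membrane receptors enter. Ift140 and Ift122 fell by little, with log2 fold changes of -0.13 (adjusted p = 0.0103) and -0.10 (adjusted p = 0.0232). Tulp3 was at 119, 116 and 116 CPM in WT-labelled libraries and at 115, 117 and 113 in KO-labelled ones, which overlap, and did not pass (log2 fold change -0.03, adjusted p = 0.410), as did Ift43 (-0.03). With the subunits that carry other symbols (a set outside the planned lists), 5 of the 6 IFT-A genes fell (83.3%, beside 28.8% of all genes) and none rose. Wdr35, the IFT121 subunit, fell the most of these, from 44.5, 43.6 and 46.4 CPM to 28.2, 29.6 and 30.2 (log2 fold change -0.61, SE 0.043, adjusted p = 1.03e-07), and Wdr19, the IFT144 subunit, had -0.40. Over all 17 IFT-B subunits 10 fell (58.8%) and 1 rose (5.88%, beside 29.9% of all genes), Cluap1 lowest at -0.48.

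The 5 motor genes had a median log2 fold change of -0.35, beside -0.19 for the 11 IFT-B genes. All 3 subunits of kinesin-2, the motor towards the tip, were lower in KO-labelled libraries, beside 28.8% of all genes. Kif3b (chromosome 2 from 153291413 to 153333390) was at 101, 101 and 100.4 CPM against 73.5, 75.4 and 75.6, so that the lowest library labelled WT lay far above the highest labelled KO. Its mean went from 101 ± 0.527 to 74.8 ± 1.18 CPM (SD, n = 3 each), and the log2 fold change was -0.43 (SE 0.031, adjusted p = 1.09e-07), beside a median of -0.04 among the genes within 5 Mb. Kif3a (chromosome 11), its partner motor chain, was at 54.7, 49.5 and 50.2 CPM against 39.8, 40.5 and 40.5, again with no overlap, or 1.28-fold lower (adjusted p = 1.60e-05), with a median of 0.02 among its neighbours. Kifap3, the non-motor subunit, had -0.10 (adjusted p = 0.0366) on chromosome 1, whose own median was -0.15. Of the return motor dynein-2, the light intermediate chain Dync2li1 was at 22.6, 23.0 and 24.3 CPM against 18.0, 16.7 and 16.5 (log2 fold change -0.45, adjusted p = 1.58e-05). The heavy chain Dync2h1, which holds the motor domain, was at 13.6, 15.6 and 17.9 CPM against 16.5, 16.6 and 19.2. Its groups overlap and it did not pass (0.14, adjusted p = 0.200), although without the WT replicate 3 it did (0.25, adjusted p = 0.0267). Of 5 dynein-2 genes, other symbols included, 4 fell (80.0%, beside 28.8% of all genes), with Wdr60 at -0.58.

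The BBSome carries membrane proteins out of the cilium. Among the 9 genes of the BBSome, its chaperonins and the GTPase that recruits it, 4 fell (Bbs7, Bbs9, Arl6 and Bbs1), 2 rose (Bbs4 and Bbs12) and Bbs2, Bbs5 and Bbs10 did not pass. That is 44.4% lower, beside 28.8% of all genes, and 22.2% higher, beside 29.9%. Bbs4 was at 8.01, 7.34 and 7.24 CPM in WT-labelled libraries and at 11.2, 9.19 and 9.15 in KO-labelled ones. Its lowest library labelled KO was above the highest labelled WT, and its log2 fold change was 0.39 (SE 0.093, adjusted p = 0.00321), with 3.21% of its exon bases shared with Adpgk on the other strand. Bbs7 lay in the opposite direction, at 13.6, 13.8 and 14.8 against 12.0, 11.6 and 10.8 CPM (log2 fold change -0.30, adjusted p = 0.00191), and Bbs9 had -0.25 (adjusted p = 0.0130). Bbs12, a chaperonin-like protein needed to assemble the BBSome, had 0.35 (adjusted p = 0.00421). Bbs4 and Bbs9 lie on chromosome 9 and Bbs7 and Bbs12 on chromosome 3, with medians of 0.19 and 0.16. Bbs4 and Bbs12 were each 0.19 above the median of their chromosome, and Bbs7 and Bbs9 were 0.45 and 0.44 below it. Bbs2, a core subunit, did not pass, with a log2 fold change of -0.0003 and overlapping groups. Arl6, the GTPase that brings the BBSome to the membrane, had -0.24 (adjusted p = 0.0177). Over the 8 BBSome subunits, Ttc8 and Bbip1 included, 3 fell (37.5%, beside 28.8% of all genes) and 1 rose (12.5%, beside 29.9%).

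The transition zone held both the gene with the lowest adjusted p of all members and 4 of the genes that fell. Of its 7 genes 57.1% fell, beside 28.8% of all genes, and 28.6% rose, beside 29.9%. Mks1 (chromosome 11 from 87853215 to 87863803, plus strand) codes for a B9 domain protein of the MKS complex, mutated in Meckel syndrome. It had 250, 252 and 265 counts in WT-labelled libraries and 766, 895 and 703 in KO-labelled ones, or 7.98, 7.52 and 8.30 against 21.6, 21.5 and 21.3 CPM. The 3 libraries of each group lay close together and far from the other group. The mean rose from 7.93 ± 0.39 to 21.5 ± 0.169 CPM (SD, n = 3 each), 2.71-fold (log2 fold change 1.44, SE 0.060, adjusted p = 6.30e-10). Genes within 5 Mb of Mks1 had a median of 0.05. In the 14 other settings its log2 fold change was between 1.40 and 1.49.

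Of 13 other genes of the MKS complex (a set drawn up after the values were seen), 6 fell, 0 rose and 7 did not pass. That is 46.2% lower, beside 28.8% of all genes. Cc2d2a, a C2 domain protein of the gate, was at 114, 117 and 118 CPM against 78.4, 80.9 and 83.2 (log2 fold change -0.53, SE 0.033, adjusted p = 3.36e-08). The 3 tectonic genes, which code for secreted and membrane proteins of the gate, all fell, beside 28.8% of all genes. Tctn2 fell by 0.45, Tctn3 by 0.28 and Tctn1 by 0.28 on the log2 scale. Cc2d2a, Tctn1 and Tctn2 lie on chromosome 5, where the genes within 5 Mb of each had a median of -0.30, -0.31 and -0.31, and Tctn3 on chromosome 19, where it was 0.04. Tctn1 shares 19.0% of its exon bases with Hvcn1 on the other strand. Rpgrip1l, a scaffold of the gate, rose from 23.5, 25.9 and 27.2 to 32.4, 32.6 and 32.4 CPM (log2 fold change 0.35, adjusted p = 8.66e-05) on chromosome 8, where the median of the genes around it was 0.25. Cep290, which joins the membrane to the microtubules, was at 29.5, 30.3 and 31.5 against 27.7, 29.5 and 31.2 CPM, with overlap, and did not pass (-0.05, adjusted p = 0.444).

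Arl13b and Arl3 are GTPases of the ciliary membrane, the first activating the second, which then releases lipid-bearing cargo. Arl13b was at 25.4, 26.2 and 25.5 CPM in WT-labelled libraries and at 22.8, 24.4 and 23.0 in KO-labelled ones (log2 fold change -0.13, adjusted p = 0.0305), and failed the test in 7 of 14 other settings. Arl3 had -0.16 (adjusted p = 0.00572). Evc and Evc2, mutated in Ellis-van Creveld syndrome, form a complex at the ciliary base that passes the HH signal on from SMO. Their starts lie 1605 bases apart on opposite strands of chromosome 5. Evc was at 104, 104 and 101 CPM against 81.1, 80.5 and 79.7 (log2 fold change -0.36, SE 0.031, adjusted p = 5.81e-07), and Evc2 at 87.7, 86.4 and 86.0 against 71.8, 72.6 and 72.2 (-0.26, SE 0.031, adjusted p = 9.75e-06). Neither gene's groups overlap. The genes within 5 Mb of this pair had a median of -0.26.

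**Figure D4:**
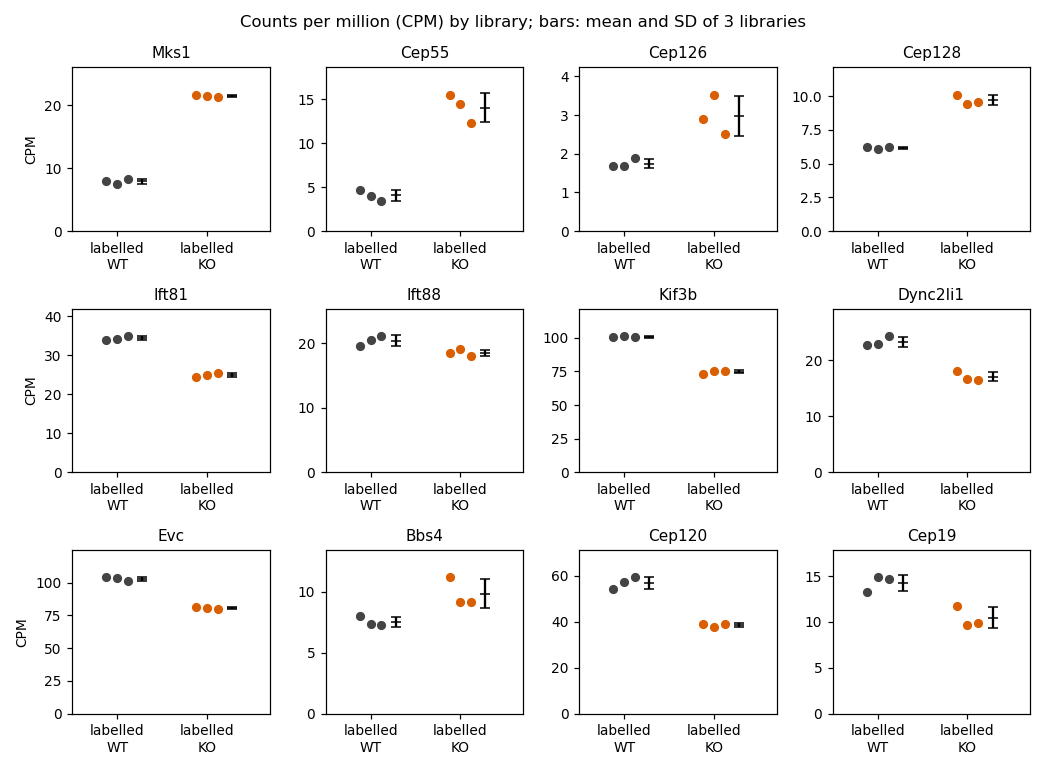
CPM of a selection of 12 cilium genes in each library (points) with the mean and SD of 3 libraries. Every axis starts at 0. Of these, only Mks1 and Cep55 have a mean in the libraries labelled KO over 2-fold that of the libraries labelled WT. The groups do not overlap in these 12 selected panels, beside 56 of the 77 members (72.7%) and 64.2% of all genes. Members whose groups overlap, such as Tulp3, Dync2h1 and Cep290, are not drawn.

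Genes of the distal centriole and its appendages, which dock the centriole at the membrane, went both ways. The share of this role that rose, 33.3%, was near the 29.9% of all genes, of which 28.8% fell. Cep89, Cep78 and Cep83 rose (0.29, 0.27 and 0.24), Cep19, Cep97 and Ofd1 fell, and Cep164 and Cep162 did not pass. Cep19, which draws IFT-B to the base, was at 13.2, 14.9 and 14.6 CPM against 11.7, 9.72 and 9.87, with no overlap (log2 fold change -0.45, SE 0.082, adjusted p = 4.17e-04). Cep97, a partner of the centriole cap, had -0.31, and Ofd1, a protein of the distal centriole, had -0.30 (adjusted p = 0.00101) on chromosome X, where the genes around it had a median of -0.33. Cep164, the distal appendage protein needed for docking, was at 65.2, 64.3 and 67.8 CPM against 60.8, 61.3 and 64.9.

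Among 9 genes of centriole duplication and length, 4 rose (44.4%, beside 29.9% of all genes) and 1 fell (11.1%, beside 28.8%). Cep295 and Cep57 rose 1.40-fold and 1.37-fold (adjusted p = 1.42e-05 for each), Cep44 and Cep63 by less, and Cep152, Cep192, Cep135 and Cep76 did not pass. Cep120, which lengthens the centriole, fell more than any other member. It was at 54.2, 57.0 and 59.3 CPM against 39.1, 37.6 and 38.9, or 1.48-fold lower (log2 fold change -0.56, SE 0.042, adjusted p = 1.66e-07), just short of the 1.5-fold limit. Without the WT replicate 1 it passed that limit, at -0.60. Cep120 lies on chromosome 18, with a median of -0.30 among the genes within 5 Mb, while Cep295, Cep57 and Cep63 lie on chromosome 9.

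Cep55 (chromosome 19 from 38055011 to 38074423) is best known for its part at the midbody in the last step of cell division. It had 147, 135 and 111 counts in WT-labelled libraries and 549, 600 and 404 in KO-labelled ones, or 4.07 ± 0.608 against 14.1 ± 1.66 CPM (SD, n = 3 each). All 3 libraries labelled KO stood far above those labelled WT, at 3.46-fold (log2 fold change 1.79, SE 0.11, adjusted p = 3.79e-08). The mitotic list had a median of 1.60, with Ccnb2 at 2.10 and Ccnb1 at 1.92, and its part in the change of Cep55 was not tested. Without Cep55 and the noncoding Cep83os, 18 of 75 members rose, 35 fell and 3 were past 1.5-fold.

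The remaining 18 Cep genes serve in several parts of the centrosome. Of these 7 rose (38.9%, beside 29.9% of all genes), 5 fell (27.8%, beside 28.8%) and 6 did not pass. Cep126 had 53, 56 and 60 counts in WT-labelled libraries and 103, 147 and 83 in KO-labelled ones (log2 fold change 0.78, SE 0.16, adjusted p = 8.06e-04). It was the member with the lowest level per length, 0.512 CPM per kb. Cep128, a protein of the subdistal appendages, had 195, 204 and 198 counts against 358, 392 and 316, 1.57-fold higher (log2 fold change 0.65, SE 0.074, adjusted p = 8.14e-06). Both stood above their surroundings, where the median was 0.12 and -0.11. Cep70, Cep83os, Cep72, Cep57l1 and Cep85l rose by 0.49, 0.42, 0.40, 0.32 and 0.19 on the log2 scale. Cep170, a subdistal appendage protein, was at 136, 140 and 143 CPM against 103, 107 and 116 (log2 fold change -0.36, adjusted p = 8.71e-06), and Cep350, Cep41, Cep250 and Cep170b fell by 0.29, 0.19, 0.12 and 0.10. Cep112, among the 3 lowest in level at 0.989 CPM per kb, did not pass (-0.12, adjusted p = 0.262), nor did Cep295nl, Cep85, Cep95, Cep68 and Cep131.

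Genes of the cilium outside the symbol rule were read from lists of known members. Of 20 IFT, BBSome and dynein-2 genes under other symbols, 11 fell (55.0%, beside 28.8% of all genes) and 1 rose (median -0.16). Of 20 other genes of the transition zone and the inversin compartment, 6 fell (30%, beside 28.8% of all genes) and 1 rose (median 0.0009), and 35.0% passed in either direction, beside 58.7%. Of 16 genes of basal body docking 6 rose (37.5%, beside 29.9% of all genes) and 2 fell (median 0.03), with Rab11a, which brings vesicles to the growing cilium, at 0.47. Of the 6 RFX and multiciliation genes listed of 12, Rfx3, Rfx2 and Rfx5 fell and Rfx7 rose, with Rfx3 at -0.45, and Foxj1, which drives motile cilia, had 13 to 17 counts. Only 3 of 16 genes of the motile axoneme were listed, and of these Ccdc39 fell (-0.73, adjusted p = 9.25e-06).

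Of 14 genes listed as ciliary membrane cargo or shuttles of lipid-bearing proteins, 9 fell (64.3%, beside 28.8% of all genes). Of the same genes 3 rose (21.4%, beside 29.9%), and the median was -0.27. Adcy3, the adenylyl cyclase widely used as a marker of cilia, had 3, 3 and 5 counts in WT-labelled libraries and 182, 246 and 193 in KO-labelled ones (fitted log2 fold change 5.59, SE 0.21, adjusted p = 2.88e-10). With so few counts in WT-labelled libraries, the size of that change is imprecise, but the groups are far apart. Gpr161, a ciliary receptor that restrains HH signaling, went from 24.8, 25.2 and 26.4 to 15.4, 16.1 and 16.1 CPM (-0.68, SE 0.051, adjusted p = 1.61e-07). Pde6d and Unc119b, carriers of lipid-bearing proteins whose cargo ARL3 releases, had -0.47 each, whereas the related carrier Unc119 had 0.36. Of 11 genes that act in shortening or suppressing the cilium, 6 rose (54.5%, beside 29.9% of all genes) and 2 fell (18.2%, beside 28.8%). The 4 past 1.5-fold (36.4%, all higher, beside 11.6% of all genes) were Nek2 (1.84, adjusted p = 2.38e-08), Plk1 (1.75, adjusted p = 8.36e-08), Aurka (1.45) and Plk4 (1.07). These 4 kinases also act in mitosis or in centriole duplication, and the part of the mitotic genes in their change was not tested.

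**Figure D5:**
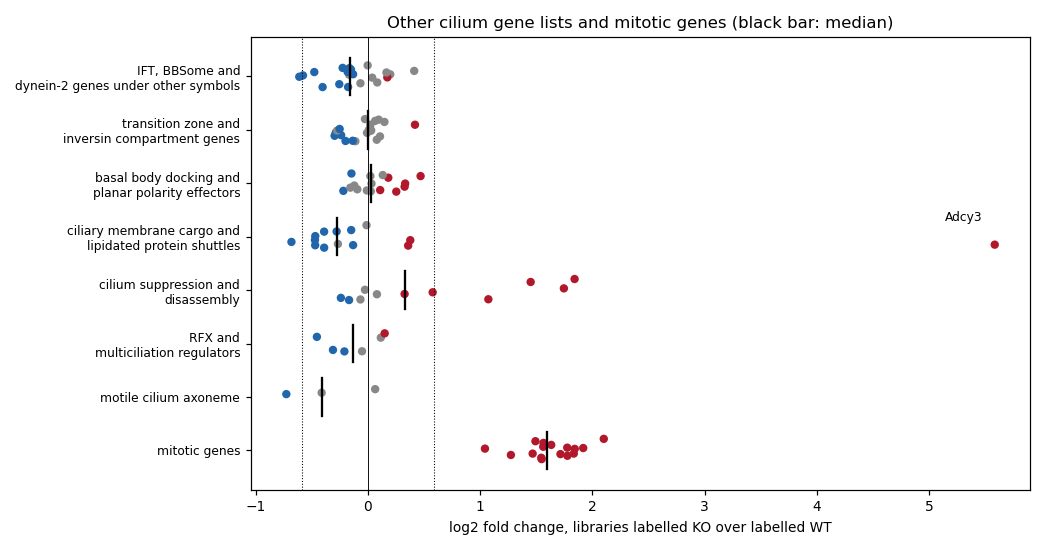
The log2 fold change (libraries labelled KO over labelled WT) of genes on the other cilium lists and the mitotic list, with a point for each gene tested (red passed as higher, blue passed as lower, grey did not pass), a black bar for the median and dotted lines at 1.5-fold. Adcy3 stands alone at 5.59, and all 16 mitotic genes lie right of the dotted line at 1.5-fold, with a median of 1.60. Of all genes tested, 11.6% passed as higher beyond that line.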

How the data were processed

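RNAseq counts were analysed for 6 libraries, grouped by their genotype labels alone. The authors deposited raw counts of reads per gene, without normalization, and log2 CPM values from the same libraries, which were used only in an alternative fit. The submitters' processing notes name STAR 2.7.2b, featureCounts, limma and GRCm38.p6. The annotation and the use of strand in counting are not given in the sources used here. Libraries were made from polyadenylated RNA. Genes with low counts had been left out of the deposited tables.

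The test was edgeR's quasi-likelihood F test (version 4.0.16, R 4.3.3) after TMM scaling and filterByExpr, with Benjamini-Hochberg adjustment over the 14289 genes tested. SE is the log2 fold change divided by the root of F. CPM use the effective library size, and a floor of 3 counts was 0.072 to 0.0957 CPM. Pairs of libraries in a group differed by more than sampling noise (chi-square per degree of freedom 2.47 to 7.53), so all were kept. On simulated counts for 14112 genes with 200 changed, 91% of 1.5-fold, 97% of 2-fold and 100% of 3-fold changes were recovered, with 16 false calls. Recovery there needed an adjusted p under 0.05 and the right sign, without the fold limit. Changes under 1.5-fold, the size of most member changes, were not simulated. In the data 58.7% of all genes passed, a far larger share than was changed in the simulation.

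Positions and exon lengths are from GENCODE M21 on GRCm38, where all 77 members and 14822 of the 14831 identifiers matched without their version. Promoter windows are from RefSeq (GRCm38.p6), with 75 windows for 67 members. In 8 members exons overlap a listed gene on the other strand, by 0.474% to 19.0% of their bases, and their reads cannot be told apart without strand.

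The members, lists and the 1.5-fold limit were chosen with earlier results of these data known. Genes named by rule were Ift88, Kif3a, Dync2h1, Arl13b, Tulp3, Evc, Evc2, Bbs4, Cep290 and Ofd1, up to 3 past the limit in each direction or else the largest change in each role, the 3 highest and 3 lowest in level per length, the targeted genes and HH targets, and up to 2 past the limit in each direction of each other list. Other genes named were chosen after their values were seen. Alternatives were scaling by RLE, upper quartile or total counts, no filter and a minimum of 10 counts in every library, DESeq2 1.42.0, limma-voom (limma 3.58.1), limma on the deposited log2 values, fold limits of 1.2 and 2, and leaving out each library. Values relative to the chromosome median were added after seeing the data. The counts over whole complexes, with subunits under other symbols, were not among the planned lists. Some genes that enter the counts are not reported here by name.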

Additional observations from a re-analysis of the deposited data

How the results depend on the processing

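No member that passed changed sign in any of 14 other settings, and 4 members were called higher in each. Relative to the chromosome median, which is not among those settings, Ift46 (-0.0498), Cep63 (-0.0123) and Kifap3 (0.0544) changed sign although they had passed. The median log2 fold change moved from -0.08 to -0.0217 with upper-quartile scaling, which raised the median of all genes by 0.06. At least 1.2-fold, 15 members were higher and 20 lower, and at least 2-fold, 2 were higher. Leaving out 1 library gave 0 to 1 called lower, the 1 being Cep120 without WT replicate 1. Members that passed as lower ran from 25 (upper-quartile scaling) to 35, with 26 without WT replicate 3, 27 without KO replicate 1 and 29 with DESeq2. Those higher ran from 19 to 25. Some of the genes named by rule that did not pass turned sign. They were Tulp3 (0.0267 upper-quartile, 0.0044 total-count), Cep290 (0.0089 upper-quartile), Ift52 (0.0067 upper-quartile) and Ift20 (0.0412 upper-quartile, 0.019 total-count). Ift20 also ran from -0.0383 to 0.0093 with 1 library left out, and Dync2h1 turned to -0.0467 relative to its chromosome median. Over all 77 members, 6 turned sign with upper-quartile scaling and 4 with total-count scaling, none of which had passed. Ift140 and Arl3 failed the test with upper-quartile scaling. Of 75 counts and medians recomputed, 70 moved by under 1.5 times (medians by under the spread between replicates). The cause of these shifts was not tested. No paired analysis was possible because the labels carry no replicate numbers. Wells that may all come from 1 line a group, and labels at odds with Gli2 and Gli3, limit every direction given.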
